A study of Mus musculus with 3 samples.

Results

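The genes of glutathione transferases were followed on 3 Affymetrix arrays of RNA from the mouse mammary epithelial line NMuMG. They were taken as 10 named genes (Gsta4, Gstm1, Gstm2, Gstp1, Gstt1, Gsto1, Gstk1, Mgst1, Mgst2 and Mgst3) of the 19935 genes that could be compared, each read from the probe set with that gene as its only symbol. All 10 were matched, each by 1 probe set. The mock array (n = 1) held NMuMG cells with the vector pCAGIP, and 2 arrays (MAFK, n = 2) held stable cell lines with pCAGIP-FLAG-MafK, called clone 4 and clone 10. Cells of all 3 arrays grew in the same medium with serum and puromycin. Each MAFK line is 1 clone and was measured once, and the mock cells are not labelled as clonal, so effects of MAFK and of cloning cannot be told apart. Any p-value rests on the spread between these 2 clonal lines, which holds differences between clones and technical ones together, and mock has no spread of its own.

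Glutathione transferases join the thiol of glutathione to electrophilic compounds, among them drugs and the reactive aldehydes of lipid peroxidation, which makes these easier to export. The cytosolic enzymes fall into classes named by Greek letters (alpha, mu, pi, theta, omega), the kappa enzyme lies in mitochondria and peroxisomes, and the microsomal enzymes form a separate membrane-bound family. Many of these genes carry antioxidant response elements, DNA sites bound by the factor NRF2 paired with a small MAF protein. MAFK is a small MAF: it has a DNA-binding leucine zipper and no activation domain of its own, so pairs of small MAF proteins are known as repressors at such sites.

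Gsta4, Gstm2, Gstp1 and Gsto1 lay 2-fold or more below mock in clone 4 and in clone 10, Gstt1 lay 2-fold or more above it in each, and the other 5 genes met neither rule. By the same rules 1.81% of all genes were lower, 1.19% higher and 3.0% either. The members were chosen with earlier results of these data known, so setting them beside all genes is no test of the list. Below mock by any amount in each clone were 6 members, beside 17.9% of all genes, and above it were 3, beside 33.7%. The same value on all 3 arrays was read by 1 member, beside 34.3% of all genes, which lowers these all-gene shares. With dim genes left out, 9 members and 10722 genes remained, and 502 of these genes were at least 2-fold apart in both clones. The median difference of the 10 genes from mock on the log2 scale was -0.55 in clone 4 and -0.28 in clone 10, beside 0 in each clone over all genes. Values are log2 RMA expression, a normalised array brightness per probe set, in which a difference of 1 is 2-fold. No member passed limma, a moderated linear model fitted over all genes, at a Benjamini-Hochberg adjusted p under 0.05 together with the 2-fold rule, which 1.16% of all genes did (0.762% downward and 0.401% upward). That share rests on 232 genes, which were 34 after a second quantile normalization, 118 with dim genes left out and 360 with the default prior. At an unadjusted limma p under 0.05 there were 6 members, beside 17.5% of all genes, and limma with its default prior gave an adjusted p under 0.05 to 3 members (Gsta4, Gsto1 and Mgst3), beside 17.8% of all genes. Mgst3 passed there on a difference of -0.24 with equal values in the clones. The members are therefore described by their values, and "rose" or "fell" is kept for genes past both criteria.

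**Figure D1:**
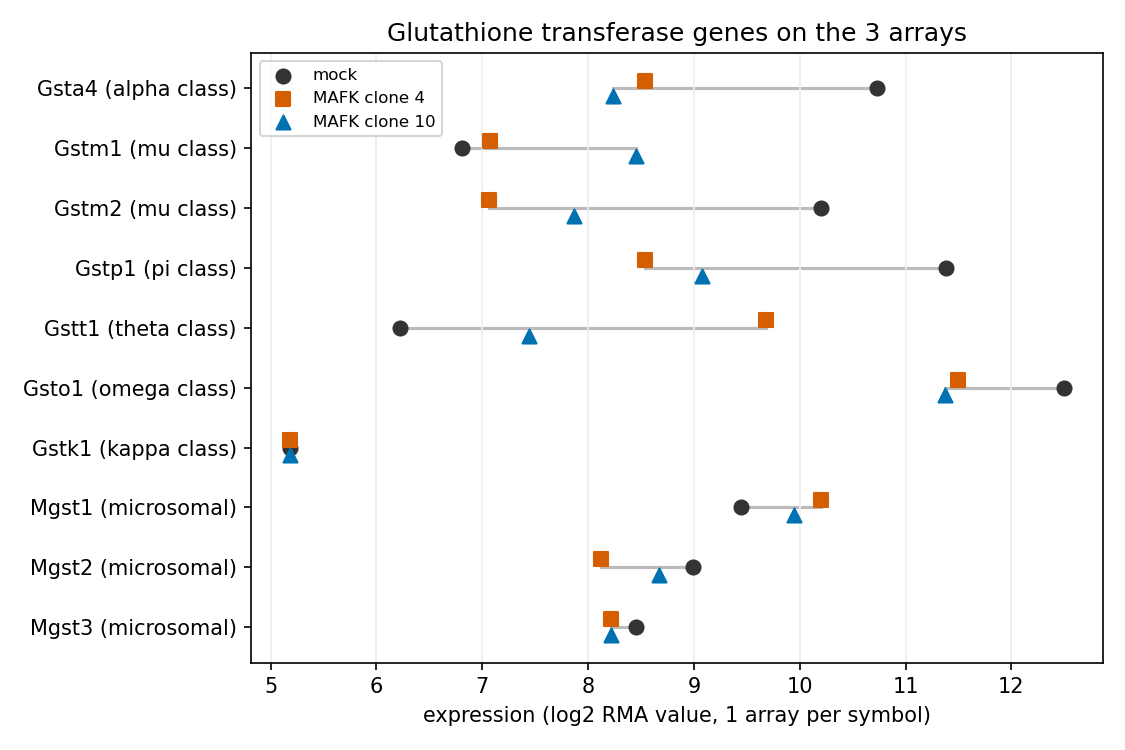
Expression of the 10 glutathione transferase genes (log2 RMA value, horizontal axis) on the mock array (circles), MAFK clone 4 (squares) and MAFK clone 10 (triangles), 1 array per symbol, with a grey line from the lowest to the highest value of a gene. Gsta4, Gstm2, Gstp1 and Gsto1 have the mock circle at the right end, Gstt1 has it at the left end, and the 3 symbols of Gstk1 coincide at 5.18.

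Gstp1 and Gsto1 were below mock in both clones, while Gstp3 (pi class) and Gsto2 (omega class) read the mock value in each, 6.07 and 7.05. Equal values on all 3 arrays were common (34.3% of all genes), so here and for other genes they do not by themselves show an unchanged RNA level. The mock value of Gstp3 exceeded 32.1% of the probe sets of its array and that of Gsto2 52.9%. Gstp1, the single pi class enzyme gene among the members, read 11.39 in mock against 8.54 in clone 4 and 9.08 in clone 10. Both clones lay far below mock and 0.54 apart from each other. The difference of -2.58 ± 0.28 (SE) is 5.97-fold lower in MAFK (8.81 ± 0.38 SD, n = 2), with a limma adjusted p of 0.0925. Gsto1, the omega class enzyme with thioltransferase and dehydroascorbate reductase activity, read 12.50, 11.49 and 11.38 in the same order of arrays. The mock value exceeded 98.4% of the probe sets of its array, and the clones lay 0.12 apart. The Gsto1 difference of -1.06 ± 0.09 (SE), 2.09-fold lower, had a limma adjusted p of 0.0711. Clone 4 was only just past the 2-fold line, and after a second quantile normalization of the arrays it read -0.98, so Gsto1 no longer counted as 2-fold lower in both clones.

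The promoter of Gstp1 is shown because, of the 9 members with an entry in the promoter table, it alone held TGANTCA followed directly by GCA, the core and 1 flank of the site to which small MAF proteins bind with their partners. The sequence is the 250 bases before the transcription start listed by RefSeq (GRCm38.p6, chr19:4037913-4038162, minus strand), with matches to the motifs searched in capitals. The joint sequence starts 74 bases before the start site and contains the shorter AP-1 type element TGANTCA, and the capitals nearest the start site are a match to GCGTG, the core of the element bound by the aryl hydrocarbon receptor.
Gstp1: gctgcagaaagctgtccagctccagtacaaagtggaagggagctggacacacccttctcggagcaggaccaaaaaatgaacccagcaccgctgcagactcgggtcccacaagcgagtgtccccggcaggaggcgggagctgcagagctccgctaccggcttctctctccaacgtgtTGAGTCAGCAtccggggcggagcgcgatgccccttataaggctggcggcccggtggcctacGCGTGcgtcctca
Of 32851 promoter entries of this length, 0.353% held this joint sequence on either strand, 6.75% held TGANTCA and 28.2% held GCGTG. A match is a run of letters and no measured binding site.

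Probe sets shared between Gstp1 and its near-identical neighbour Gstp2 gave smaller differences of the same sign. The first read 9.28 in mock against 7.45 in clone 4 and 7.58 in clone 10. The second read 9.17, 7.30 and 7.44. The means of their differences were -1.77 and -1.80, against -2.58 for the probe set named for Gstp1 alone. RNA of Gstp1 and Gstp2 cannot be told apart in the shared sets, and how much Gstp2 RNA binds the Gstp1 set was not tested. Gstp3, the next gene of the cluster, read 6.07 on all 3 arrays.

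The mu class genes differed among themselves. Gstm2 read 10.20 in mock against 7.07 in clone 4 and 7.87 in clone 10, which is 6.64-fold lower with MAFK (difference -2.73 ± 0.41 SE, limma adjusted p = 0.133). This was the largest mean difference of the 10 genes, while Gstt1 lay farther from mock in clone 4 and Gsta4 in clone 10. The Gstm2 clones were 0.80 apart. Its neighbour Gstm1 read 6.81 in mock against 7.07 in clone 4 and 8.46 in clone 10. Gstm1 therefore stood above mock by 0.26 in clone 4 and by 1.65 in clone 10, and its mean difference of 0.96 ± 0.71 (SE) was not past limma (adjusted p = 0.772). That mean rests on clone 10: without it the difference is 0.26.

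The other mu class genes of chromosome 3 were closer to mock. In the annotated order of the cluster, Gstm5 differed from mock by -0.17 in clone 4 and -0.66 in clone 10, Gstm7 by 0 and 0.55, and Gstm6 by -0.51 and -0.32. Gstm3 differed by 0.23 in each clone and Gstm4 not at all. A second probe set of Gstm3 gave -0.05 in clone 4 and 0.51 in clone 10. Gstm2 was thus the 1 gene of these 7 at least 2-fold apart in both clones. Mu class genes are close in sequence, and how far their RNAs bind each other's probes was not tested. The promoter of Gstm2 (250 bases before the RefSeq start, GRCm38.p6, chr3:107986421-107986670, minus strand) is shown for contrast with that of Gstp1, since it held none of the motifs searched.
Gstm2: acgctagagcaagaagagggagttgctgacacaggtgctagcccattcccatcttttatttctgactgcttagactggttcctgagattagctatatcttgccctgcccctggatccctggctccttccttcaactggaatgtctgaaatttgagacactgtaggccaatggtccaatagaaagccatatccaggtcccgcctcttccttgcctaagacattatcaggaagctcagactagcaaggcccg

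**Figure D2:**
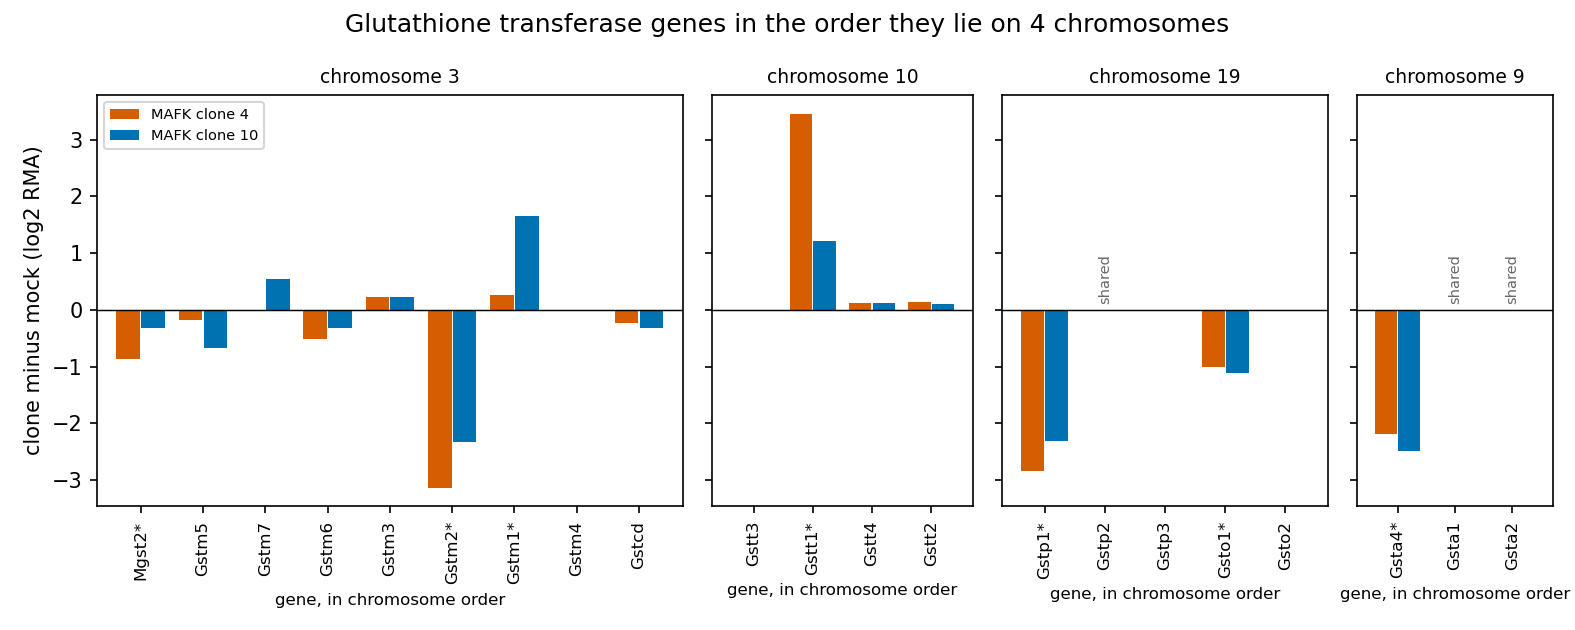
Difference of each clone from mock (log2 RMA, vertical axis) for the glutathione transferase genes of 4 chromosomes, in the order in which the annotation lists them and not to scale; asterisks mark members of the 10, and "shared" marks genes read only by probe sets of several genes. The longest bar downward is that of Gstm2 in clone 4 and of Gsta4 in clone 10, the longest upward that of Gstt1 in clone 4 and of Gstm1 in clone 10, the other theta class genes have bars of at most 0.14, and a gene with neither a bar nor the word had the mock value in both clones.

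Gsta4, the alpha class enzyme known for conjugating the lipid aldehyde 4-hydroxynonenal, read 10.73 in mock against 8.53 in clone 4 and 8.24 in clone 10. The clones were 0.30 apart and both more than 4-fold below mock. The difference of -2.34 ± 0.16 (SE), 5.07-fold lower in MAFK (8.39 ± 0.21 SD, n = 2), had the smallest limma adjusted p of the members, 0.0591. The same gene passed with limma's default prior (adjusted p = 0.0432) and with an intensity trend in the prior (0.0398), as Gsto1 did (0.0391 and 0.0411). The default prior takes in the many genes with equal clones, and its SD was 0.0105 against 0.0694 in the main fit. Over its alternatives the adjusted p of Gsta4 ran from 0.0398 to 0.0923 and that of Gsto1 from 0.0391 to 0.105.

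Probe sets shared by the alpha class genes Gsta1 and Gsta2 and a pair of predicted genes were below mock as well. These 4 sets differed from mock by -1.44 and -1.47 (clone 4 and clone 10), by -1.24 in each clone, by -0.50 in each clone and by -0.49 in each clone. All 4 thus had the sign of Gsta4, and the sizes depended on the set. Gsta3, an alpha class gene on chromosome 1, read 5.96 on all 3 arrays.

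Gstt1, the theta class enzyme that acts on small halogenated compounds, was the 1 member at least 2-fold higher in both clones. It read 6.22 in mock against 9.68 in clone 4 and 7.45 in clone 10. Clone 4 was 11.0-fold and clone 10 2.33-fold above mock, so the clones differed more from each other (-2.24 for clone 10 minus clone 4) than clone 10 did from mock. The mean difference of 2.34 ± 1.13 (SE) did not pass limma (adjusted p = 0.495), and it is 1.22 without clone 4 and 3.46 without clone 10. The mock value exceeded 36.0% of the probe sets of its array, a range where RMA compresses differences. Of its neighbours on chromosome 10, Gstt3 read 6.71 on all 3 arrays, Gstt4 differed by 0.12 in each clone, and Gstt2 by 0.14 in clone 4 and 0.11 in clone 10. The promoter of Gstt1 (250 bases before the RefSeq start, GRCm38.p6, chr10:75797732-75797981, minus strand), shown as that of the member with the opposite sign, held none of the motifs searched.
Gstt1: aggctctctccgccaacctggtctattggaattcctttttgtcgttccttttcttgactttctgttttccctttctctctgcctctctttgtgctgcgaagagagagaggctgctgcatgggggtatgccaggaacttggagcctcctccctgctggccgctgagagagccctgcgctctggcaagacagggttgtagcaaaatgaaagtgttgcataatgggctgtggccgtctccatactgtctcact

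The kappa and microsomal genes were closer to mock. Gstk1, the mitochondrial and peroxisomal enzyme, read 5.18 on all 3 arrays, where 11.6% to 11.8% of probe sets were dimmer. Mgst1, a microsomal transferase that also reduces lipid peroxides, read 9.45 in mock against 10.20 in clone 4 and 9.94 in clone 10. Both clones lay above mock, by 0.75 and 0.49 (limma adjusted p = 0.215, with 95% limits of the mean difference of 0.14 and 1.10). Mgst2, which can make leukotriene C4, read 8.99 in mock against 8.13 in clone 4 and 8.67 in clone 10. The Mgst2 clones lay below mock by 0.86 and 0.32 (limma adjusted p = 0.494, limits -1.51 and 0.33). Mgst3 read 8.45 in mock and 8.22 in each clone (limma adjusted p = 0.268, limits -0.46 and -0.01). The microsomal genes thus did not share a direction, and none was 2-fold apart in both clones.

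RefSeq's promoter table matched 9 of the 10 members, all but Gsta4. Mgst1 was the 1 member with the antioxidant response element core TGACNNNGC, which 10.2% of all promoter entries held on either strand. Only this form of the core was searched. The TGAGTCAGC within the Gstp1 match has G where this core has C and otherwise matches it, so Gstp1 is not shown to lack a wider form. Mgst1 and Mgst2 are shown as 30-base windows around their match, in capitals, because they are the members apart from Gstp1 with a site of the AP-1 and antioxidant type. The Mgst1 match lies on the reverse strand and starts 56 bases before the first of the 2 start sites listed for the gene (GRCm38.p6, chr6:138140460-138140489, plus strand), and the Mgst2 match to TGANTCA starts 52 bases before its start site (chr3:51661115-51661144, plus strand).
Mgst1: ggcggggcttgGCACGGTCAggaggcgggg
Mgst2: tcccaatcctgtTGACTCAactctgttgcc
A match to GCGTG was found in Mgst3, Gstm1 and Gstp1. No match in a window says only that these letters are not in it.

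The clones were less than 2-fold apart for most members. Only Gstk1 and Mgst3 read equal values in the clones, as 55.5% of all genes did. Clone 10 and clone 4 were at least 2-fold apart for 2 of the 10 genes, beside 0.441% of all genes. Gstm1 was 2.62-fold higher in clone 10 and Gstt1 was 4.71-fold lower in clone 10. With 1 array per clone there is no test of these differences. The plot of the clones' differences from mock shows both genes away from the line of equal values.

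**Figure D3:**
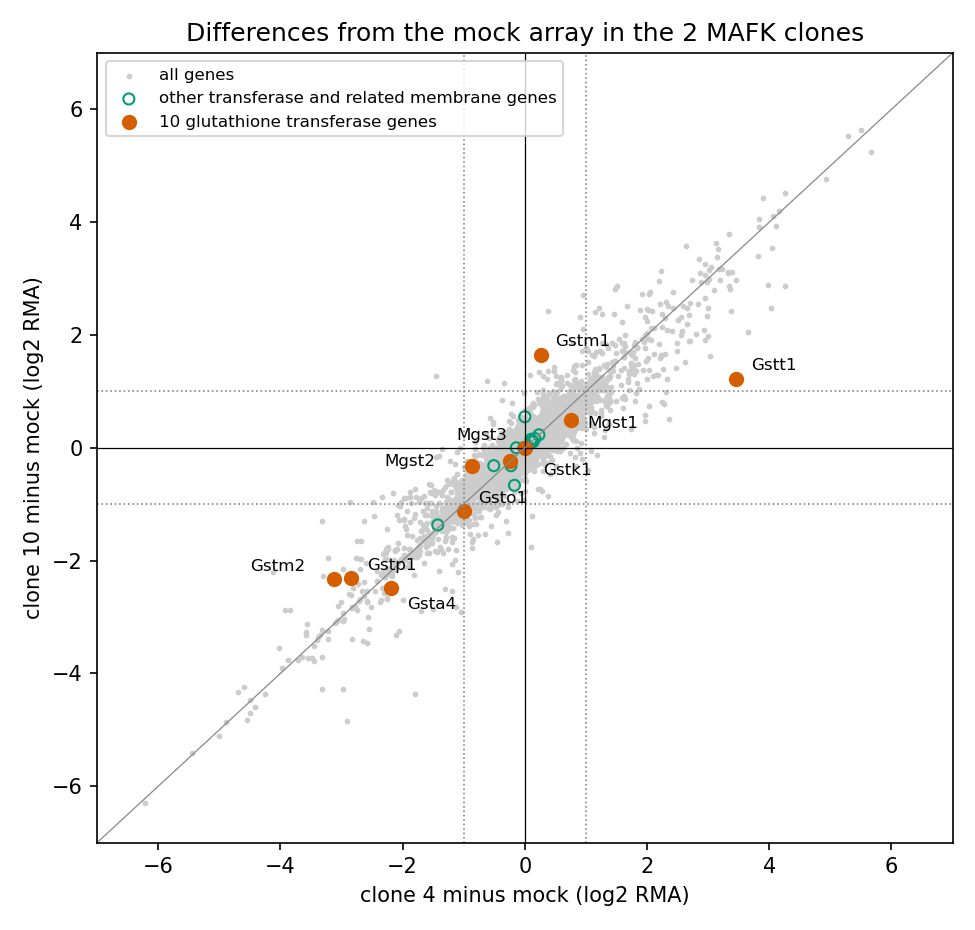
Difference from mock in clone 4 (horizontal) and clone 10 (vertical), both in log2 RMA units, for all 19935 genes (grey), the 10 members (filled, named) and 17 related genes (open circles); dotted lines mark 2-fold and the diagonal marks equal differences. Both axes share the single mock array, so the spread along the diagonal includes its error; Gsta4, Gstm2, Gstp1 and Gsto1 lie in the lower left corner beyond or at the dotted lines and Gstt1 lies right of the diagonal.

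The genes nearest to a member in their pair of differences from mock were found by Euclidean distance over the 2 clones, over all genes. Dnajc22 (distance 0.09), Acox2 (0.09) and Lsr (0.14) were nearest to Gsta4. Prxl2a (0.06), Slc39a10 (0.16) and Apob (0.18) were nearest to Gstp1. Nearest to Gstm2 were Dglucy (0.18), 3830403N18Rik (0.23) and again Prxl2a (0.25). Nipal1 (0.04), Otub2 (0.05) and Zfp759 (0.06) were nearest to Gsto1. Gstt1 had no close match, with Gprc5c (0.59), Ldhb (0.85) and Socs2 (0.86) nearest. These distances rest on 3 arrays and describe likeness only.

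Of 20 further transferase and related membrane genes listed, 17 were measured. Of these 1 fell and none rose, beside 0.762% and 0.401% of all genes. Hpgds, the sigma class transferase that makes prostaglandin D2 from its precursor, read 6.90 in mock against 5.47 in clone 4 and 5.53 in clone 10, and fell 2.63-fold (limma adjusted p = 0.0438). In the clones its values exceeded 17.4% and 18.9% of probe sets. After a second quantile normalization it no longer passed (limma adjusted p = 0.0672). The other 16 missed the 2-fold rule, and 5 of the 17 had the same value on all arrays. Among them Gstz1, the zeta class enzyme of tyrosine breakdown, read 8.73, 8.59 and 8.73, and the membrane family members Ltc4s, Alox5ap and Ptges differed from mock by at most 0.16. The median difference of the 17 was 0 in both clones, as over all genes.

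Genes that make, recycle, use or export glutathione differed in both directions. Of 49 measured in 6 lists, 2 rose and none fell, with 3 at least 2-fold lower and 3 at least 2-fold higher in both clones. Over all genes 0.401% rose and 0.762% fell, and 1.81% were at least 2-fold lower and 1.19% higher. The 2 that rose export conjugates or drugs. Abcc3, which pumps glutathione and glucuronide conjugates out of the cell, read 7.08 in mock against 9.67 in clone 4 and 9.60 in clone 10 and rose 5.88-fold (limma adjusted p = 0.0293). Abcg2, a drug efflux pump, read 6.14, 8.10 and 8.02 and rose 3.79-fold (limma adjusted p = 0.0344). The Abcg2 value in mock exceeded only 33.9% of the probe sets of its array. Neither passed limma after a second quantile normalization (adjusted p = 0.0520 for Abcc3 and 0.0592 for Abcg2). Abcc4, another pump of the same family as Abcc3, read 10.38, 8.81 and 8.52 and was 3.29-fold lower (limma adjusted p = 0.0774). Of the remaining 3 export genes, Abcc1 was below mock by 0.62 and 0.69, Abcc5 by 0 and 0.05, and Abcc2 had equal values on all arrays.

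**Figure D4:**
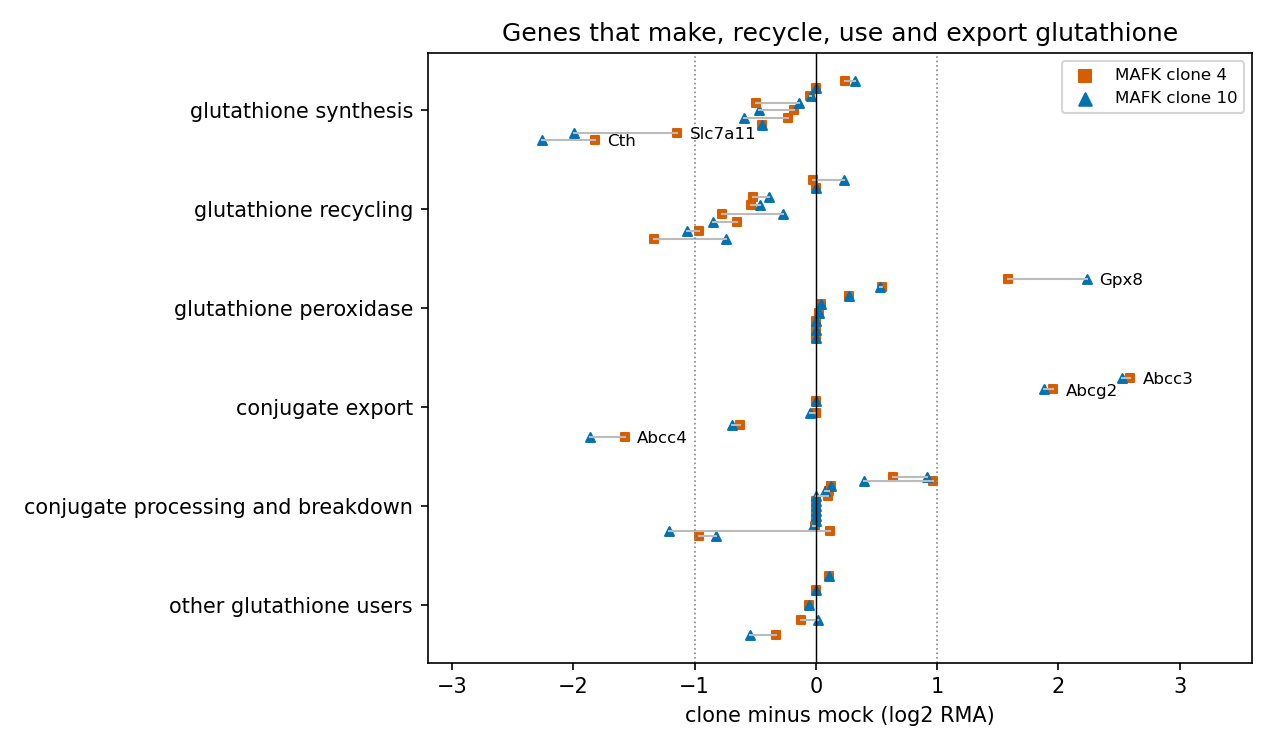
Difference of clone 4 (squares) and clone 10 (triangles) from mock (log2 RMA, horizontal axis) for the 49 measured genes of 6 glutathione lists, each gene 1 line, with 2-fold marked by dotted lines. Named are the genes past 2-fold in each clone: Cth, Slc7a11 and Abcc4 to the left, Gpx8, Abcg2 and Abcc3 to the right.

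In glutathione synthesis, Cth and Slc7a11 were the 2 genes at least 2-fold lower in both clones. Cth, the lyase that makes cysteine from cystathionine, read 8.49 in mock against 6.67 in clone 4 and 6.24 in clone 10 (limma adjusted p = 0.0971). Slc7a11, the cystine importer, read 7.84, 6.70 and 5.85 (limma adjusted p = 0.254). Its value in clone 10 exceeded only 25.9% of the probe sets of that array. Other genes of cysteine supply were closer to mock: Slc3a2, the partner chain of Slc7a11, differed by -0.18 and -0.47, Cbs, the enzyme before Cth, by -0.45 in each clone, and the cysteine importer gene Slc1a1 by 0.24 and 0.32. Gclm, a subunit of the enzyme of the first step of synthesis, differed by -0.49 and -0.14. Of the 9 synthesis genes 7 were below mock in both clones, beside 17.9% of all genes, and none passed the test. The median difference of the 9 was -0.23 for clone 4 and -0.45 for clone 10, beside 0 in each clone over all genes.

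Of 8 recycling genes 6 were below mock in both clones, beside 17.9% of all genes, and none was 2-fold apart in both clones. Gsr, the reductase that restores glutathione, differed by -0.65 and -0.85 (limma adjusted p = 0.140), and the mitochondrial glutaredoxin gene Glrx2 read 10.74 on all 3 arrays. Me1 differed by -0.96 and -1.07 (limma adjusted p = 0.0712) and Glrx by -1.34 and -0.74 (0.274). Me1 was past 2-fold in clone 10 only and Glrx in clone 4 only. Among 8 peroxidase genes, Gpx8, which lies in the endoplasmic reticulum, read 8.78 in mock against 10.36 in clone 4 and 11.01 in clone 10 (3.76-fold higher, limma adjusted p = 0.155). Gpx4 differed by 0.27 and Gpx1 by 0.05 in each clone. None of 13 breakdown genes and none of 5 other glutathione users was 2-fold apart in both clones. Of these, Chac2 stood 0.64 and 0.92 above mock, and Lap3 and Adh5 had equal values on all arrays. Chac1 differed from mock by 0.11 in clone 4 and by -1.21 in clone 10.

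Regulators of these genes were mostly near the mock value. Nfe2l2, the gene of NRF2, read 11.17 in mock against 11.22 in clone 4 and 11.25 in clone 10. Keap1, its inhibitor, differed by 0.02 in each clone and Bach1, a repressor that pairs with small MAF proteins, by 0.05. The Mafk probe set differed by 0.24 in clone 4 and 0.10 in clone 10. Which part of Mafk RNA it reads was not analysed here, so it is no check of the transgene. Of 13 regulators 1 fell, beside 0.762% of all genes. This was the aryl hydrocarbon receptor gene Ahr, a gene named after its values were seen. Ahr read 10.25 in mock against 8.66 in clone 4 and 8.52 in clone 10 and fell 3.15-fold (limma adjusted p = 0.0463). Ahr did not pass limma after a second quantile normalization (adjusted p = 0.0716), with dim genes left out (0.0568) or with the mean of all probe sets of a gene (0.0530).

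The array medians were 6.89 in mock against 6.92 in clone 4 and 6.93 in clone 10, and 55.5% of genes had equal values in the clones. Of 12 epithelial markers 2 fell (Cdh1 and Tjp1), beside 0.762% of all genes. Of 10 mesenchymal markers 2 rose (Fn1 and Pdgfrb), beside 0.401% of all genes. None of these 4 passed limma after a second quantile normalization (adjusted p from 0.0544 for Cdh1 to 0.0825 for Pdgfrb). Other markers went the opposite way without passing the test. Of the epithelial list 5 genes were below mock in both clones and 4 above, among them Krt19 (by 0.25 and 0.08), Krt7 (0.38 and 0.21) and Cldn3 (0.25 and 0.27). Of the mesenchymal list 5 were above mock in both clones and 2 below, Vim (-0.38 and -0.14) and Cdh2 (-0.37 and -0.35). Over all genes 17.9% were below mock in both clones and 33.7% above. The summed linear level of the epithelial list was 26316 in mock and 17531 and 18069 in the clones, and that of the mesenchymal list 15208, 17471 and 19503. Such sums weigh the brightest genes most, which in mock were Krt8 and Vim. The median difference from mock was 0 in each clone for the epithelial list. For the mesenchymal list it was 0.13 in clone 4 and 0.27 in clone 10. Of the epithelial markers, Epcam and Esrp1 had the same value on all arrays (5.58 and 5.48), and the keratin gene Krt8 read 13.67 in mock. No immune (5 measured), endothelial (4) or adipocyte (3) marker was 2-fold apart in both clones. The part of these marker differences in the transferase values was not tested, and in RNA from whole cultures fewer expressing cells and less RNA per cell cannot be told apart.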

How the data were processed

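The authors deposited log2 values, 1 per probe set, computed by RMA according to the submitters' processing notes. Version, filters and genome build are not given in the sources used here. Labelled DNA was made from total RNA. Of 28815 probe sets, 21780 had 1 gene symbol, updated by Entrez identifier (GRCm38.p6), and the brightest on average stood for a gene. The number of arrays limits precision.

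Differences were taken from mock, and limma 3.58.1 (R 4.3.3) was fitted over all 3 arrays, two-sided, with Benjamini-Hochberg adjustment over all genes and 1 residual degree of freedom. Its prior (1.93 degrees of freedom, SD 0.0694) came from the 8873 genes whose clones differed, since RMA gave many equal values. Differences under 1e-08 were set to 0. Genes equal in the clones had the smallest SE, 0.0690. The fit was tested on simulated data with known changes, where it missed those of 2-fold. Recovery there needed the 2-fold rule together with limma, so misses at that size do not measure limma alone. Genes named were all members, pathway genes 2-fold apart in both clones, up to 2 of the brightest others per list, set regulators, 3 nearest genes per member, and neighbours. Cbs, Slc1a1, Gclc, Me1, Glrx, Chac1 and the single markers were named after their values were seen. Members and lists were chosen with earlier results of these data known.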

Additional observations from a re-analysis of the deposited data

How the results depend on the processing

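The 4 members at least 2-fold lower in both clones were 4 with dim genes left out, with the mean of all probe sets, at a 1.5-fold threshold and with either clone left out, and 3 after a second quantile normalization. The members past both criteria numbered 2 with limma's default prior and 2 with an intensity trend, against 0, and 0 under the other alternatives. No member that differed from mock changed direction under these alternatives. Genes at least 2-fold apart numbered 1230 at 1.5-fold and 715 to 753 with 1 clone left out, against 598. Genes also past limma were 232, and 34 after a second quantile normalization, 118 with dim genes left out and 360 with the default prior; the cause was not tested. Leaving out a clone gives a value with no test. No paired analysis was possible because mock was measured once. Brightness limits dim genes: 9 members had a mean over the arrays at or above the median of all probe sets, and of these Gstm1 (6.81) and Gstt1 (6.22) were below it in mock.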
